A study of Macaca mulatta with 24 samples.

Results

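CC chemokines are small secreted proteins that direct the movement of leukocytes, and 10 of them were followed here in the colon of irradiated rhesus macaques: CCL2, CCL5, CCL8, CCL11, CCL19, CCL20, CCL21, CCL23, CCL25 and CCL28. Every transcript probe on the array whose gene symbol was one of these names was taken, which gave 20 probes for the 10 genes, out of 43603 different probes on the array. CCL5 had 5 probes, CCL8 had 3, CCL19, CCL21, CCL23 and CCL28 had 2 each, and CCL2, CCL11, CCL20 and CCL25 had 1 each. All 20 probes passed the filter on dim signals, which 38229 probes passed in total. A gene with several probes is represented by its brightest probe, the one of highest mean signal, and its other probes are described beside it.

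The animals were young-adult male macaques that received a single uniform dose of cobalt-60 gamma radiation to the whole body (total-body irradiation, TBI) or a sham exposure. About 3 cm of colon was taken from each animal, whole gut tissue was used for RNA, and each animal gave 1 one-colour array. The sham-irradiated controls (n = 4) were labelled day 4 and served all days. Irradiated animals were sampled on day 4 (n = 4), day 7 (n = 4) or day 12 (n = 2) after 6.7-Gy TBI, and in the same numbers after 7.4-Gy TBI. No other treatment was labelled.

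CC chemokines take their name from a pair of adjacent cysteines, and they act on G-protein-coupled receptors of the CCR family. Inflammatory members such as CCL2, CCL8 and CCL11 are induced in epithelial, stromal and myeloid cells by cytokines including TNF and IL-1 and draw monocytes, eosinophils and T cells into tissue. CCL19 and CCL21 guide T cells and dendritic cells that carry CCR7 into lymphoid tissue. CCL20, CCL25 and CCL28 are made by gut epithelium and act through CCR6, CCR9 and CCR10, CCL25 mainly in the small intestine.

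Each value is the log2 of the probe's signal relative to the 75th percentile of the signals on its own array, so that 0 is that percentile and a difference of 1 is 2-fold. The share of probes well above background on an array lay between 66.8% and 85.0%, and arrays of the same group correlated at 0.963 to 0.985 across probes. The mean log2 signal of 7 colon epithelial markers lay between 2.98 and 4.65 on the 24 arrays. Of the 10 chemokines, 8 were well above background on all 24 arrays by their brightest probe. CCL23 was above background on 16 of 24 arrays and CCL25 on 14 of 24. A probe is called here when its limma p, adjusted by Benjamini-Hochberg over all probes tested, was under 0.05 and its change was at least 2-fold. No label says more about the relation between animals than that each is a separate sample, so the p-values measure the spread between these samples.

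On day 4, CCL2, CCL11, CCL19, CCL20 and CCL23 rose at both doses. Among the genes above background in all controls, the increases ran from 2.88-fold for CCL11 to 9.16-fold for CCL20 after 6.7-Gy TBI and from 3.41-fold to 11.5-fold for the same genes after 7.4-Gy TBI. CCL23 was above background on 1 of 4 control arrays, so the size of its increase is uncertain. These were 5 of the 10 genes at 6.7 Gy, where 1.81% of all probes were called higher, and 5 of the 10 at 7.4 Gy, where 3.4% of all probes were called higher. CCL5, CCL8, CCL21, CCL25 and CCL28 were not called on day 4 by their brightest probes. On day 7, 0 of the 10 genes were called at either dose by the brightest probe, beside 0.317% of all probes at 6.7 Gy and 0.387% at 7.4 Gy. On day 12, 0 of the 10 were called, beside 0.0183% and 0.0262% of all probes, with 2 animals per dose. The median log2 change of the 10 genes after 6.7 Gy was 0.96 on day 4, 0.89 on day 7 and 0.25 on day 12. After 7.4 Gy it was 1.62, 0.50 and 0.13. The median over all probes lay between -0.08 and 0.02 in these 6 comparisons. All 6 comparisons share the same 4 control arrays.

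**Figure D1:**
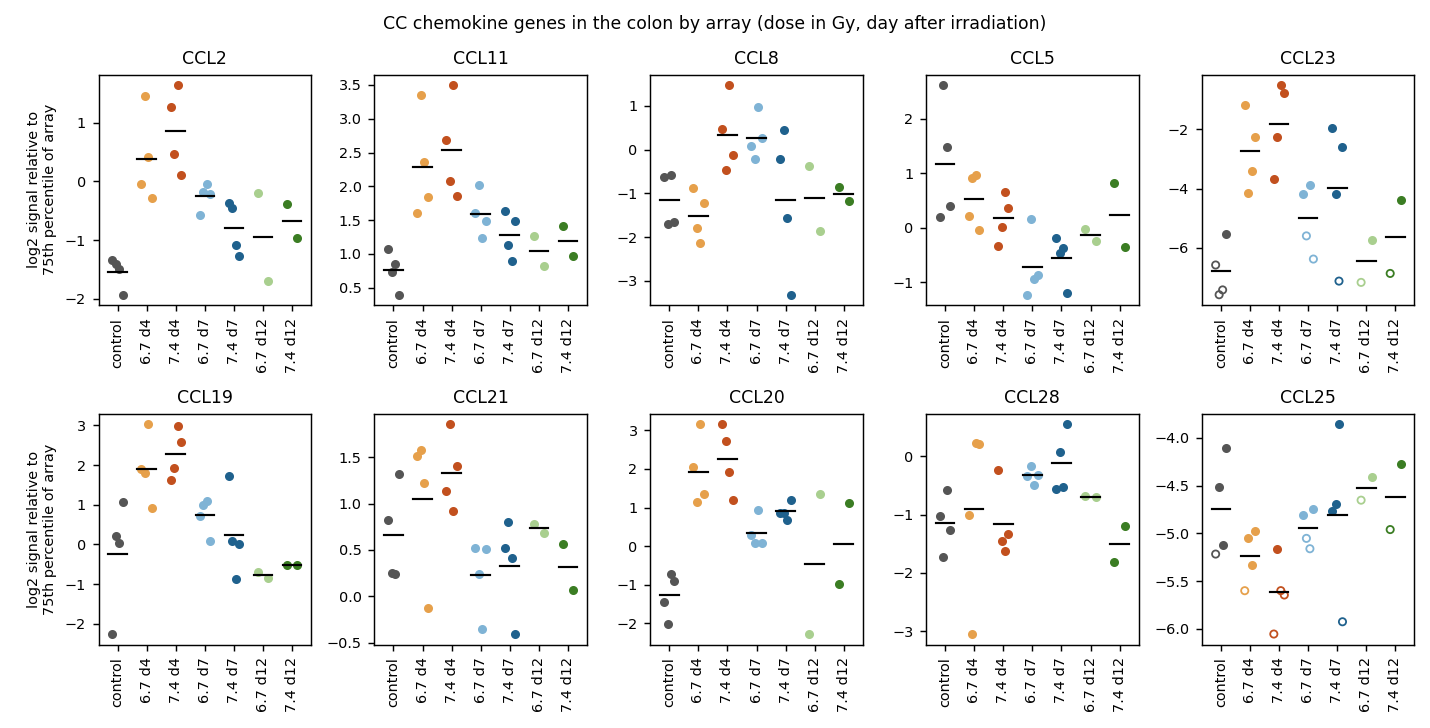
Log2 signal relative to the 75th percentile of the array for the brightest probe of each of the 10 genes (vertical axis) in the control group and the 6 groups by dose in Gy and day (d4, d7, d12), with 1 point per animal and a line at the group mean. Open points were not well above background. The 8 day 4 points of CCL2, CCL11, CCL20 and CCL23 sit above the 4 control points, and the day 7 points of CCL5 sit below them.

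The inflammatory ligands were taken first, and among them CCL2, which attracts monocytes through CCR2 (probe A_01_P1671826). Its log2 signals were -1.34, -1.41, -1.498 and -1.93 in the controls. After 6.7-Gy TBI they were -0.04, 1.46, 0.41 and -0.28 on day 4, and after 7.4-Gy TBI they were 1.26, 0.46, 1.64 and 0.11. All 8 irradiated animals on day 4 lay above the highest control. The group means were -1.54 ± 0.26 (SD, n = 4) in the controls, 0.39 ± 0.77 (n = 4) at 6.7 Gy and 0.87 ± 0.71 (n = 4) at 7.4 Gy. CCL2 thus rose 3.81-fold after the lower dose (limma adjusted p = 0.00493) and after the higher dose 5.32-fold (adjusted p = 0.000346). On day 7 the signals were -0.57, -0.18, -0.05 and -0.21 at 6.7 Gy and -0.36, -0.45, -1.08 and -1.27 at 7.4 Gy. All 8 were still above the highest control, but the changes of 2.45-fold (adjusted p = 0.179) and 1.69-fold (adjusted p = 0.483) were not called. On day 12, 1 of 2 animals at 6.7 Gy and 2 of 2 at 7.4 Gy were above all controls.

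CCL11, or eotaxin, attracts eosinophils through CCR3 (probe A_01_P1671891). Its log2 signals were 1.08, 0.73, 0.85 and 0.40 in the controls, 1.60, 3.35, 2.36 and 1.85 on day 4 after 6.7 Gy, and 2.69, 2.08, 3.50 and 1.86 on day 4 after 7.4 Gy. Again no day 4 animal overlapped the controls. The means of 0.76 ± 0.28 (n = 4), 2.29 ± 0.77 (n = 4) and 2.53 ± 0.73 (n = 4) gave increases of 2.88-fold at 6.7 Gy (limma adjusted p = 0.0106) and at 7.4 Gy of 3.41-fold (adjusted p = 0.00172). Of 19 other processings or tests, 3 lost the 6.7-Gy call and 1 lost the 7.4-Gy call. At 6.7 Gy the limma adjusted p was 0.0772 with slide as a block and 0.0615 with the compared groups alone. By the methods' t-test the adjusted p was 0.11. On day 7 the log2 signals ranged from 1.24 to 2.03 at 6.7 Gy and from 0.89 to 1.63 at 7.4 Gy, with 4 of 4 and 3 of 4 animals above all controls, and neither change was called (1.78-fold, adjusted p = 0.44, and 1.44-fold, adjusted p = 0.619). The same animals were highest in both genes: replicate 2 at 6.7 Gy and replicate 3 at 7.4 Gy had the highest day 4 values of CCL2 and of CCL11 within their dose.

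In the RefSeq annotation of the T2T-MMU8v2.0 assembly, CCL2, CCL7, CCL11, CCL8 and CCL13 follow each other in that order among protein-coding genes. CCL2 and CCL11 correlated at r = 0.93 over the 24 arrays, and at r = 0.79 once each group's mean had been removed. CCL11 and CCL8 have no protein-coding gene between them and correlated at 0.28, and at 0.13 without the group means. CCL21 and CCL19 also lie side by side and correlated at 0.45 and 0.14. Of the 45 pairs among the 10 genes, 10 correlated above 0.5 over all arrays, and 2 did without the group means, CCL2 with CCL11 and CCL2 with CCL8 (0.51). These correlations describe arrays that share groups, slides and scaling, and are given without a test.

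**Figure D2:**
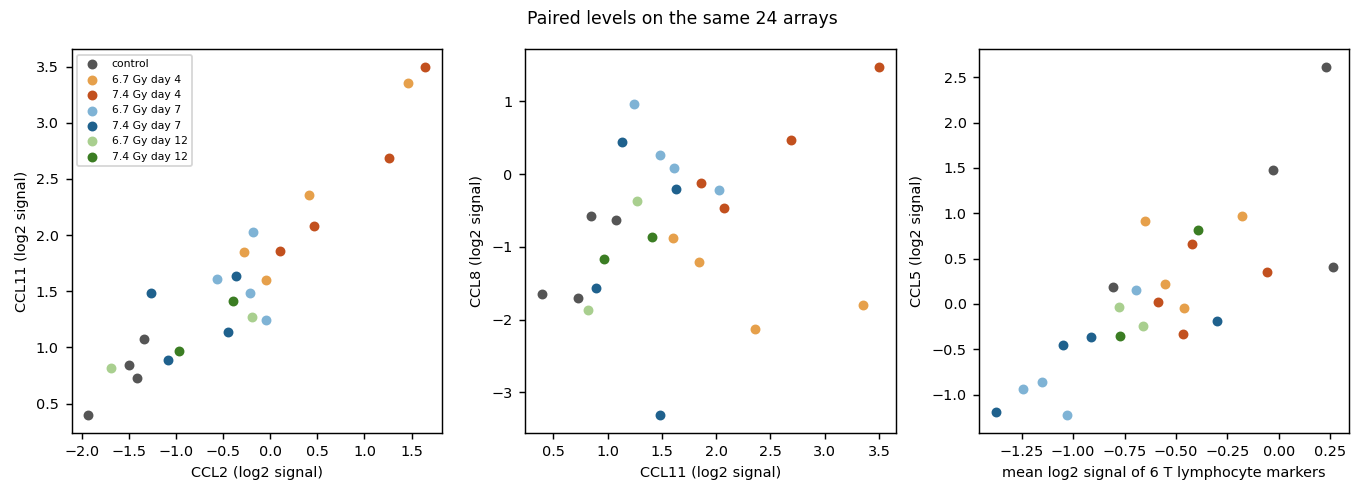
Log2 signals of CCL11 against CCL2, CCL8 against CCL11, and CCL5 against the mean log2 signal of 6 T lymphocyte markers, with 1 point per array coloured by group. CCL2 and CCL11 lie along a line (r = 0.93), CCL11 and CCL8 scatter (r = 0.28), and CCL5 is high where the T lymphocyte markers are high (r = 0.80).

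CCL8, a ligand related to CCL2 that also attracts monocytes, had another pattern (probe A_01_P1698036). Its log2 signals were -0.63, -1.70, -0.57 and -1.65 in the controls and -0.87, -1.80, -2.13 and -1.21 on day 4 after 6.7 Gy, which overlapped. On day 4 after 7.4 Gy they were 0.46, -0.46, 1.48 and -0.12, and on day 7 after 6.7 Gy they were 0.09, -0.22, 0.97 and 0.26, and all 8 of these animals were above the highest control. On day 7 after 7.4 Gy the animals spread from -3.32 to 0.45, below and above the controls. Neither of the high groups was called, at 2.79-fold (limma adjusted p = 0.0947) for day 4 after 7.4 Gy and 2.66-fold (adjusted p = 0.465) for day 7 after 6.7 Gy. One of the other probes was called on day 4 after 7.4 Gy, at a log2 change of 1.52 (adjusted p = 0.0486), and the remaining probe was not, at 1.76 (adjusted p = 0.0514). The 3 probes followed each other closely, with correlations of 0.98 and 0.95 between the brightest and the other probes.

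By group means the doses differed most in CCL8, and in opposite directions on days 4 and 7. On day 4 the 7.4-Gy mean was higher by 1.84 on the log2 scale (95% confidence interval 0.56 to 3.13) with no overlap between the doses, and on day 7 the difference was -1.43 (-2.72 to -0.15). The change of the dose difference from day 4 to day 7 was -3.28 (-5.09 to -1.46). None of these was called: the limma adjusted p was 0.602 on day 4, 1 on day 7 and 0.994 for the change, with unadjusted p of 0.00717, 0.0304 and 0.00123. The day 7 difference was uneven between scan days. After 7.4 Gy, the 2 day 7 arrays of scan day 1 differed from that scan day's controls by -1.27. The 2 arrays of scan day 2 differed by 1.23. After 6.7 Gy the day 7 mean was above the controls on both scan days. Over the 19 other processings or tests the day 7 dose difference ran from -1.87 to -0.15. Whether it depended on scan day was not tested. Across the array, 0% of probes were called between the doses on day 4, 0% on day 7, 0% on day 12, and 0.00262% for the change of the dose difference.

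CCL23, a ligand of CCR1 that attracts monocytes and resting T cells, gave the widest changes and the least certain ones (probe A_01_P1671966). In the controls its log2 signals were -6.58, -7.58, -7.42 and -5.55, and 1 of these 4 arrays was well above background. On day 4 they were -1.17, -4.15, -3.39 and -2.25 after 6.7 Gy and -3.68, -2.24, -0.50 and -0.78 after 7.4 Gy, above background and above every control in all 8 animals. The means were -6.78 ± 0.94 (n = 4), -2.74 ± 1.31 (n = 4) and -1.80 ± 1.47 (n = 4). The fitted log2 changes were 4.04 at 6.7 Gy (limma adjusted p = 0.0159) and 4.98 at 7.4 Gy (adjusted p = 0.00194). Their size is set by a control level that 3 of 4 arrays did not measure well above background. With normexp background correction, run with an offset of 50, the 6.7-Gy change was 1.30 on the log2 scale in place of 4.04 and was not called (adjusted p = 0.0962). The 7.4-Gy change was 1.98 in place of 4.98 and was still called. The offset is larger than the median intensity of this probe, 43.4, and such an added constant by itself shrinks the changes of a dim probe. Without replicate 1 of the 6.7-Gy day 4 group the 6.7-Gy change was 3.52 (adjusted p = 0.0536). On day 7, 2 of 4 animals at 6.7 Gy and 3 of 4 at 7.4 Gy were above background, and the log2 changes of 1.78 and 2.82 were not called (adjusted p = 0.602 and 0.257). Without replicate 3 of the 7.4-Gy day 7 group, whose log2 signal was -7.12, the change at that dose was 3.87 and was called (adjusted p = 0.0433).

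The other probe named CCL23 did not follow it. Its log2 change on day 4 was 0.04 at 6.7 Gy and -0.19 at 7.4 Gy, it was above background on 24 of 24 arrays, and it correlated with the brightest probe at -0.07. The array's description calls its target a cDNA similar to human PSG5, a pregnancy glycoprotein. A further probe, without a symbol on the array, is described there as a CCL23 precursor and carries an accession that RefSeq assigns to CCL15. Its day 4 changes were -0.07 and 0.46 on the log2 scale (limma adjusted p = 0.899 and 0.222).

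CCL5, or RANTES, attracts T cells and monocytes and is made in quantity by T cells and NK cells (probe A_01_P1696411). It was the member with the highest control mean among the 7 groups, 1.17 ± 1.12 (n = 4), from log2 signals of 0.19, 2.62, 1.48 and 0.41. On day 4 the signals were 0.22, 0.92, 0.97 and -0.04 after 6.7 Gy and -0.33, 0.02, 0.66 and 0.36 after 7.4 Gy, within or below the control range. On day 7 they were -1.23, 0.15, -0.94 and -0.86 after 6.7 Gy and -0.19, -0.46, -0.37 and -1.20 after 7.4 Gy, all 8 below the lowest control. The log2 changes on day 7 were -1.89 (limma adjusted p = 0.0683) and -1.73 (adjusted p = 0.0927) and were not called. Of the 3 other probes that correlated with the brightest at 0.97 to 0.98, 2 were called at both doses. These probes fell by 1.97 and 2.14 at 6.7 Gy (adjusted p = 0.0426 and 0.0302) and by 1.81 and 2.01 at 7.4 Gy (adjusted p = 0.0486 and 0.0324). These were 2 of the 20 probes at each dose, where 0.22% and 0.259% of all probes were called lower. Both belong to 1 gene and are not separate results, and 0 of the 10 genes were called by the brightest probe. The brightest probe itself was called at both doses with normexp background correction, at -1.83 and -1.72. It was also called at both doses without control replicate 1 (-2.22 and -2.05), and at 6.7 Gy without replicate 2 of the 6.7-Gy day 7 group (-2.18). On day 4 after 7.4 Gy the brightest probe was called lower with normexp (-1.11, limma adjusted p = 0.0429). The same held without control replicate 1 (-1.32, limma adjusted p = 0.0497). The fifth probe, which like the brightest was designed on a partial sequence of a single macaque isolate, moved by -0.17 and -0.06 and correlated with the brightest at 0.10.

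**Figure D3:**
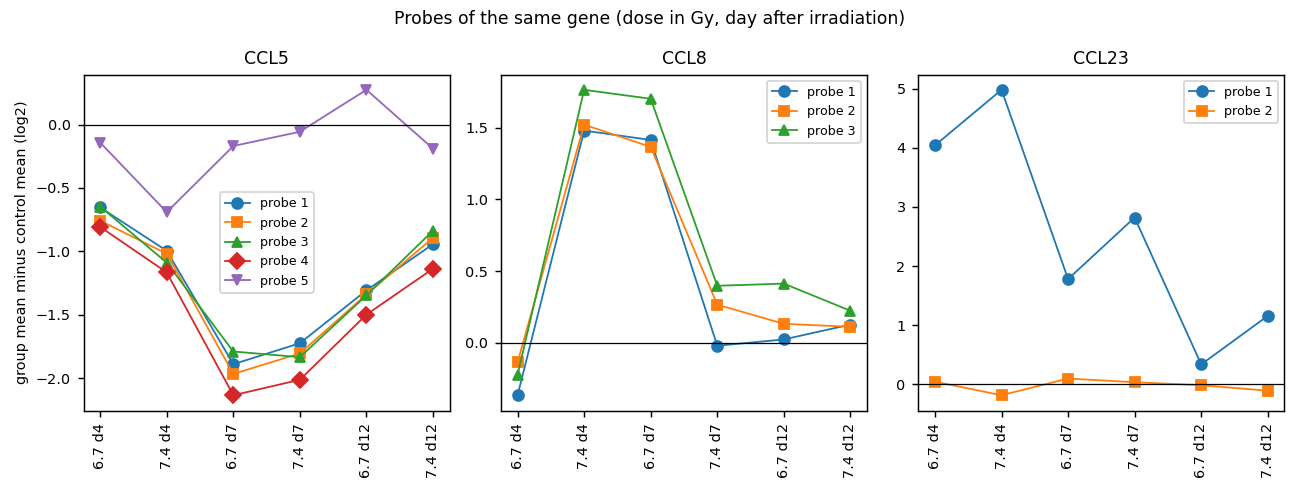
Group mean minus control mean on the log2 scale for each probe of CCL5, CCL8 and CCL23, with probes numbered from the brightest, by dose in Gy and day. Probes 1 to 4 of CCL5 and the 3 probes of CCL8 run together, while probe 5 of CCL5 stays between -0.69 and 0.27 and probe 2 of CCL23 between -0.19 and 0.09.

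Marker lists were set beside CCL5. The summed signal of the 6 tested T lymphocyte markers, on a linear scale relative to the 75th percentile, ranged from 20.1 to 22.2 in the controls, from 15.5 to 19.2 on day 4 over both doses and from 8.99 to 15.6 on day 7. Of these 6 markers, 0 were called in any group against control, and their median log2 change was -1.10 and -0.95 on day 7. The mean log2 signal of the same markers overlapped between groups, from -0.80 to 0.26 in the controls, where replicate 1 was the low one, and from -1.37 to -0.30 on day 7. Over the 24 arrays CCL5 correlated with the mean of these markers at 0.80, and at 0.58 without the group means. With the mean of 5 dendritic cell markers it correlated at 0.73 and 0.44. Of these 5 markers, 1 was called lower at each dose on day 7, beside 0.22% and 0.259% of all probes. The genes most like CCL5 over the arrays, among 9742 named genes, were CST7 (r = 0.86), ZAP70 (0.86) and PRKCQ (0.85), all known from cytotoxic or T lymphocytes. The part of the marker change in the CCL5 values was not tested, and in these tissue samples fewer cells of a type and less RNA per cell cannot be told apart.

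The lymphoid ligands were CCL19 and CCL21. CCL19 (probe A_01_P1670296) had log2 signals of -2.26, 0.22, 0.05 and 1.07 in the controls, the widest control range of the 10 genes. On day 4 the signals were 1.91, 1.79, 3.03 and 0.91 after 6.7 Gy and 1.63, 1.92, 2.99 and 2.58 after 7.4 Gy. Of these, 3 of 4 and 4 of 4 animals were above the highest control. The means of -0.23 ± 1.42 (n = 4), 1.91 ± 0.87 (n = 4) and 2.28 ± 0.62 (n = 4) gave increases of 4.41-fold at 6.7 Gy (limma adjusted p = 0.0287) and at 7.4 Gy of 5.69-fold (adjusted p = 0.00637). The 6.7-Gy call depended on single arrays. It was lost without control replicate 1 (log2 change 1.46, adjusted p = 0.091) and without replicates 1, 2 or 3 of the 6.7-Gy day 4 group (adjusted p = 0.0595, 0.0529 and 0.0913). Control replicate 1, the lowest in CCL19, was also the control with the lowest T lymphocyte marker mean, -0.80 against -0.03 to 0.26 in the others. Without the group means CCL19 correlated with these markers at 0.73, with B lymphocyte markers at 0.63 and with dendritic cell markers at 0.60, and their part in its values was not tested. The other CCL19 probe was called at both doses as well, at 2.01 and 2.36, and correlated with the brightest at 0.998. On day 7 the changes were 0.96 and 0.47 and were not called (adjusted p = 0.651 and 0.833), and on day 12 both means lay below the control mean, at -0.77 ± 0.12 (n = 2) at 6.7 Gy and -0.52 ± 0.0019 (n = 2) at 7.4 Gy.

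CCL21 was not called with CCL19 on day 4, although its day 4 means lay above the control mean at both doses. Its log2 signals (probe A_01_P1695676) ranged from 0.24 to 1.32 in the controls, from -0.13 to 1.58 on day 4 after 6.7 Gy and from 0.92 to 1.85 on day 4 after 7.4 Gy, and these ranges overlapped. The changes were 0.39 (limma adjusted p = 0.52) and 0.67 (adjusted p = 0.189), with 95% confidence intervals of -0.35 to 1.12 and -0.07 to 1.40. A 2-fold increase lies inside both intervals. On day 7 they were -0.43 and -0.33 (adjusted p = 0.756 and 0.794). The dimmer CCL21 probe, which correlated with this one at 0.91, changed by 0.56 and 0.80 on day 4 and by -0.41 and -0.49 on day 7, and was not called either. The receptor of both ligands, CCR7, had a control mean of -1.14 ± 1.44 (n = 4). Its day 4 means were -1.18 ± 0.80 (n = 4) at 6.7 Gy and -0.90 ± 0.61 (n = 4) at 7.4 Gy, and its day 7 means were lower, -3.11 ± 1.44 (n = 4) and -3.54 ± 0.92 (n = 4).

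Among the epithelial ligands, CCL20, which draws CCR6-bearing dendritic cells, B cells and T helper 17 cells to the epithelium, rose most (probe A_01_P1670961). Its log2 signals were -1.44, -2.03, -0.71 and -0.91 in the controls. On day 4 they were 2.04, 1.15, 3.15 and 1.34 after 6.7 Gy and 3.15, 2.73, 1.93 and 1.19 after 7.4 Gy, with no overlap. The means of -1.27 ± 0.59 (n = 4), 1.92 ± 0.91 (n = 4) and 2.25 ± 0.87 (n = 4) gave increases of 9.16-fold at 6.7 Gy (limma adjusted p = 0.00461) and at 7.4 Gy of 11.5-fold (adjusted p = 0.000831). On day 7 the signals were 0.28, 0.07, 0.93 and 0.08 after 6.7 Gy and 0.87, 0.85, 0.68 and 1.21 after 7.4 Gy, all 8 still above every control. The 3.06-fold and 4.51-fold changes were not called (adjusted p = 0.38 and 0.143). On day 12 the 2 animals of a dose lay far apart, at -2.27 and 1.36 after 6.7 Gy and at -0.97 and 1.11 after 7.4 Gy, so that 1 animal of each dose was above all controls and 1 was not.

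CCL28, an epithelial ligand that attracts IgA plasma cells through CCR10, had its highest means on day 7 (probe A_01_P1670467). Its log2 signals were -1.02, -1.72, -0.58 and -1.27 in the controls and -0.34, -0.17, -0.48 and -0.32 on day 7 after 6.7 Gy. On day 7 after 7.4 Gy they were -0.55, 0.07, -0.53 and 0.55. All 8 day 7 animals were above the highest control, but the changes of 0.82 and 1.04 were not called (limma adjusted p = 0.656 and 0.47). On day 4 the 6.7-Gy animals spread from -3.05 to 0.23 and the 7.4-Gy animals from -1.62 to -0.24, around the controls. After 6.7 Gy, the 2 day 4 arrays of scan day 1 differed from that scan day's controls by 1.60. The 2 arrays of scan day 2 differed by -1.10. Whether the spread depended on scan day was not tested. The other CCL28 probe correlated with this one at 0.99.

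CCL25, whose receptor CCR9 marks gut-homing lymphocytes, was dim in the colon (probe A_01_P1670571). Of the control arrays 3 of 4 detected it above background. At 6.7 Gy this was 3 of 4 arrays on day 4, 2 of 4 on day 7 and 1 of 2 on day 12, and at 7.4 Gy 1 of 4, 3 of 4 and 1 of 2. Its log2 signals ranged from -5.22 to -4.10 in the controls and from -6.05 to -5.17 on day 4 after 7.4 Gy. The changes on day 4 were -0.50 and -0.88 (limma adjusted p = 0.359 and 0.0657), and neither was called. CCL25 and CCL5 were the genes with day 4 changes below 0 at both doses.

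**Figure D4:**
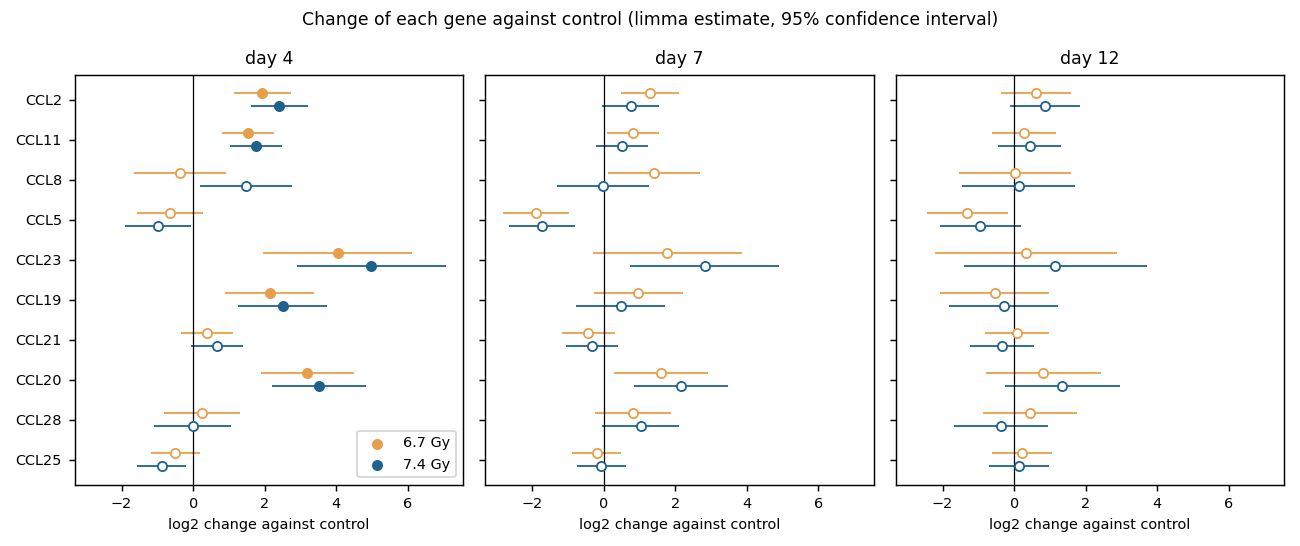
Limma log2 change against control with its 95% confidence interval for the brightest probe of the 10 genes on days 4, 7 and 12, for 6.7 Gy and 7.4 Gy. Filled points were called. On day 4 the filled points are CCL2, CCL11, CCL23, CCL19 and CCL20 at both doses, and on days 7 and 12 no point is filled.

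Whether the dose mattered was compared within each day. The 5 genes that rose on day 4 had higher means at 7.4 than at 6.7 Gy, by 0.24 to 0.94 on the log2 scale, and none of these differences was called. Over the 19 other processings or tests the sign turned in 2 for CCL20 (-0.62 to 0.38) and in 1 for CCL19 (-0.35 to 0.42). The dose groups also differed in their spread over scan days. The 95% confidence intervals of the dose difference were -0.32 to 1.28 for CCL2, -0.48 to 0.97 for CCL11, -0.88 to 1.62 for CCL19, -0.98 to 1.64 for CCL20 and -1.14 to 3.02 for CCL23. A dose difference of 2-fold is inside 4 of these 5 intervals, and that of CCL11 ends just short of it, at 0.97. The intervals are not adjusted for the number of genes, so the absence of a 2-fold dose difference was not shown for any of the 5. By limma, 0 of the 10 genes were called between the doses on any day, beside 0% of all probes on each day. At an unadjusted p under 0.05 CCL8 alone passed, on days 4 and 7.

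The time course was compared over both doses. From day 4 to day 7, 4 of the 10 genes fell, CCL2 by 1.15 (limma adjusted p = 0.00454), CCL19 by 1.61 (adjusted p = 0.00896), CCL20 by 1.46 (adjusted p = 0.0203) and CCL23 by 2.21 (adjusted p = 0.0261), where 2.06% of all probes were called lower. CCL5, CCL11 and CCL21 had an adjusted p under 0.05 with changes just short of 2-fold, at -0.98, -0.97 and -0.91. Of their other probes, the dimmer CCL21 probe (-1.13, adjusted p = 0.00602) and CCL5 probe 4 (-1.09, adjusted p = 0.0103) passed 2-fold and were called. The CCL23 call was lost without any 1 of 5 arrays, namely 6.7-Gy day 4 replicate 1, 7.4-Gy day 4 replicates 3 and 4, 6.7-Gy day 7 replicate 4 and 7.4-Gy day 7 replicate 3, with adjusted p between 0.0518 and 0.0559. Without 6.7-Gy day 4 replicate 2 the CCL2 change was -0.97, under 2-fold.

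From day 4 to day 12, all 5 genes that had risen fell, where 2.91% of all probes were called lower. The log2 changes were -1.29 for CCL11 (limma adjusted p = 0.00457), -1.44 for CCL2 (adjusted p = 0.00435), -2.28 for CCL20 (adjusted p = 0.00529), -2.74 for CCL19 (adjusted p = 0.000971) and -3.77 for CCL23 (adjusted p = 0.00403). The CCL20 call was lost without 6.7-Gy day 12 replicate 1 (-1.37, adjusted p = 0.0633) and without 7.4-Gy day 12 replicate 1 (-1.76, adjusted p = 0.05004). The dimmer CCL21 probe also fell, by 1.27 (adjusted p = 0.0112), while the brightest did not pass (-0.66, adjusted p = 0.12). CCL25 was higher on day 12 than on day 4 by 0.86 (adjusted p = 0.035), under 2-fold. Between days 7 and 12, 0 of the 10 genes were called, beside 0.107% of all probes, and the smallest adjusted p was 0.492, for CCL19.

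Ordered by mean, the 7.4-Gy and then the 6.7-Gy day 4 group came first in CCL2, CCL11, CCL19, CCL20, CCL21 and CCL23. The control group came last in CCL2, CCL11, CCL20 and CCL23, and first in CCL5. Neighbours in these orders overlapped in their array values, so the order of single neighbouring groups is not resolved. The exceptions were the 2 day 12 groups in CCL19, the day 7 group at 6.7 Gy over the next group in CCL28, and the same group over the next group in CCL8.

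The 24 arrays lay on 6 slides of 4 positions. All 4 controls were at position 1 with replicates 1 and 2 of the 6.7-Gy day 4 group, all 7.4-Gy day 4 arrays were at position 2, and the day 7 and day 12 arrays were at positions 3 and 4. Scan day 1 held 2 controls and 2 arrays each of the 6.7-Gy day 4, 6.7-Gy day 7 and 7.4-Gy day 7 groups. All other arrays, among them every 7.4-Gy day 4 and day 12 array, were of scan day 2. Within position 1, the 6.7-Gy day 4 animals were above the controls by 1.72 in CCL11, 2.08 in CCL19, 2.25 in CCL2, 2.87 in CCL20 and 4.12 in CCL23. Within the 2 slides that held a control and a 6.7-Gy day 4 array, and the 2 that held a control and a 7.4-Gy day 4 array, every one of these 5 genes was higher in the irradiated animal. With slide as a block, CCL2 and CCL20 were called at 6.7 Gy, and all 5 genes at 7.4 Gy. With position as a block, CCL2, CCL11 and CCL20 were called at 6.7 Gy. At 7.4 Gy, where that comparison with the controls runs through the 6.7-Gy group alone, CCL2 and CCL11 were called higher and CCL28 lower (-2.26, against -0.01 without the block). With position and scan day as blocks together, CCL2 and CCL11 were called at 6.7 Gy and 0 of 10 genes at 7.4 Gy, with changes of 1.40 to 4.88 for the 5 genes. For days 7 and 12 against control or day 4, position and group cannot be told apart. Between days 12 and 7, and between the doses within a day, 0 of the 10 genes were called with position as a block.

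The other members of the ligand and receptor families were counted from a list. Of 9 other CC ligands with a tested probe, CCL17 was called higher on day 4 after 6.7 Gy (log2 change 3.00, limma adjusted p = 0.0227), where 3.64% of all probes were called in either direction. Only 1 of 4 control arrays had CCL17 above background, so the size of this change is uncertain. After 7.4 Gy, CCL18 (-1.53, adjusted p = 0.0385) and CCL24 (-1.15, adjusted p = 0.00389) were called lower, where 7.04% of all probes were called in either direction. CCL24, like CCL11, is an eotaxin that acts on CCR3, and the change of 1 was below 0 while that of the other was above 0. Of 6 CC receptors counted here (CCR1, CCR3, CCR4, CCR6, CCR7 and CCR10), 0 were called in any group against control, and CCR1 came nearest on day 4 after 7.4 Gy (0.81, adjusted p = 0.0409, under 2-fold). From day 4 to day 7, 4 of the 6 were called lower, beside 2.06% of all probes: CCR7 (-2.29), CCR1 (-1.17), CCR3 and CCR4. CCR3 and CCR4 were not well above background on any day 7 array, so their decreases are at least 1.12-fold and at least 1.58-fold. DARC, now named ACKR1, a decoy receptor on venules that binds CCL2 and CCL5 among others, was called lower from day 4 to day 7 (-1.30) and from day 4 to day 12 (-1.37).

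Of 11 tested cytokines that can induce these ligands, IL1A was called higher on day 4 after 6.7 Gy (limma adjusted p = 0.00523), beside 1.81% of all probes. After 7.4 Gy, 4 of the 11 were called higher, beside 3.4% of all probes: IL1A, IL1B (log2 change 2.25), IL17F (1.39) and TNF (1.202). In the controls, 1 of 4 arrays had IL1A above background and 3 of 4 had IL1B, so the fitted log2 changes of IL1A, 3.76 and 5.09, are uncertain in size. On days 7 and 12, 0 of the 11 were called against control.

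Marker lists of cell types moved on the same days. On day 4, 4 of 7 colon epithelial markers were called lower at each dose, beside 1.83% of all probes at 6.7 Gy and 3.65% at 7.4 Gy, and the median of the 7 was -1.0 at 6.7 Gy and -1.28 at 7.4 Gy. The mean log2 signal of the 7 ranged from 4.43 to 4.56 in the controls, from 3.31 to 3.98 and from 2.98 to 3.68 on day 4, and from 4.34 to 4.65 on day 7. CCL20 was thus higher on the arrays where the epithelial markers were lower (r = -0.64 over 24 arrays, and 0.10 without the group means). For CCL2 and CCL11 the correlation with these markers was -0.81 and -0.84, and -0.66 and -0.76 without the group means. On day 4, replicate 2 at 6.7 Gy and replicate 3 at 7.4 Gy were highest in both chemokines within their dose. They also had the lowest epithelial marker means of their dose, 3.31 and 2.98. The correlations were not computed without these animals. Of 3 tested neutrophil markers, 2 were called higher on day 4 after 7.4 Gy, where 3.4% of all probes were, S100A8 (3.62) and S100A9 (2.23). The remaining neutrophil marker changed below 0 there. The mean of the 3 correlated with CCL11 at 0.87 and with CCL2 at 0.77. Replicate 2 at 6.7 Gy and replicate 3 at 7.4 Gy had the highest day 4 means of the 3 within their dose, -0.06 and 0.75. Of 5 monocyte and macrophage markers 1 was called higher after 7.4 Gy, LYZ (1.11), and of 6 fibroblast markers 2, COL1A2 (1.79) and COL3A1 (1.01). Of the 2 tested eosinophil markers, 0 were called in any group. Of 5 dendritic cell markers, 1 was called lower on day 4 at 6.7 Gy and 2 at 7.4 Gy, beside 1.83% and 3.65% of all probes. On day 7, 1 of the 5 was called lower at each dose, beside 0.22% and 0.259% of all probes. These markers were dim, with a mean log2 signal of -5.55 to -4.03 in the controls. The part of these cell type changes in the chemokine values was not tested.

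The named genes whose values were most like each member over the 24 arrays were found among 9742 genes. IL8 (r = 0.90) and GREM1 (0.90) were most like CCL2, and TIMP1 (0.93) and ADAMTS1 (0.91) most like CCL11. For CCL8 they were NUB1 (0.77) and IFIH1 (0.76), the latter an interferon-induced sensor of RNA that correlated at 0.90 over the 16 arrays outside day 4. CLDN2, a claudin of leaky epithelia, was most like CCL19 (0.86), DDB2, a p53 target in DNA repair, most like CCL20 (0.86), and FAM136A most like CCL23 (0.89). NOXO1, a subunit organiser of the colonic NADPH oxidase, was most like CCL28 (0.87). Part of each value comes from the group differences that the genes share, and most fell when the day 4 arrays were left out, for example to 0.80 for IL8 with CCL2 and 0.69 for CLDN2 with CCL19.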

How the data were processed

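Total RNA of colon from 24 macaques was hybridised to one-colour (Cy3) Agilent rhesus arrays. Per the file headers, the authors extracted each spot's intensity with Feature Extraction, which subtracted background and detrended the signal within the array, and they deposited these processed intensities unscaled. Their second table, used as an alternative, holds deposited log2 values scaled to the 75th percentile and centred per probe. A deposited raw table was not used. Gene symbols came from the deposited table, and from a RefSeq table (T2T-MMU8v2.0) by accession for 121 probes. A label text gives another last day than the sample labels, which were followed.

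Control spots were left out, outlier spots set to missing, and spots of a probe averaged. The log2 intensity minus the array's 75th percentile was tested for probes well above background on at least 2 of 24 arrays. No probe was saturated. limma 3.58.1 under R 4.3.3 fitted 1 mean per group over all arrays (lmFit, contrasts.fit, eBayes), with two-sided p-values adjusted by Benjamini-Hochberg over all probes, for 13 contrasts: 6 groups against control, 3 dose, 3 time and 1 dose-by-time. Calls needed a 2-fold change and an adjusted p under 0.05. The fit was tested on simulated data. Alternatives were 19 other processings or tests and leaving out each of the 24 arrays. All members are named. Of the family lists those called in the comparison described are named, and of like genes those with the highest correlation. One item of a family list is not reported here. Members and lists were chosen with earlier results of these data known. The number of arrays limits the precision.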

Additional observations from a re-analysis of the deposited data

Results flagged for a closer look

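In groups of 4, a sample was set apart when its gap to the nearest of the others exceeded Dixon's 95% critical value, which chance passes in about 1 of 20 groups, and 4 of 100 probe-by-group sets did so. Replicate 2 of the 6.7-Gy day 7 group was high in 2 CCL5 probes, at -1.68 against -2.68 to -2.61 for the others and at -1.88 against -2.96 to -2.79. Replicate 4 of the 7.4-Gy day 7 group was low in a further CCL5 probe, at -3.33 against -2.66 to -2.54. Replicate 3 of the 6.7-Gy day 7 group was low in the dimmer CCL21 probe, at -1.73 against -0.92 to -0.85.

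The response differed between time points, by limma over both doses, in 5 genes. From day 4 to day 7 the log2 changes were -1.15 for CCL2, -2.21 for CCL23, -1.61 for CCL19 and -1.46 for CCL20. From day 4 to day 12 they were -1.44 for CCL2, -1.29 for CCL11, -3.77 for CCL23, -2.74 for CCL19 and -2.28 for CCL20.

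In 6 further cases all animals of 1 group lay above the control mean and all of another day at the same dose below it, or the reverse. Each case involves a day 12 group of 2 animals, which can easily fall on the same side of the control mean. The day 12 values of CCL19, CCL21 and CCL25 at 6.7 Gy lay within the control range. How often other genes on the array did so was not counted. The difference within a dose was not tested in these 6 cases. For CCL19 at 6.7 Gy, day 12 minus day 7 was -1.4995. For CCL21, day 12 minus day 7 was 0.50 at 6.7 Gy, and day 12 minus day 4 was -1.01 at 7.4 Gy. For CCL25 at 6.7 Gy, day 12 minus day 4 was 0.71 and day 12 minus day 7 was 0.41. For CCL28 at 7.4 Gy, day 12 minus day 7 was -1.39.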

How the results depend on the processing

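The counts are of the 10 genes called by the brightest probe. On day 4 at 6.7 Gy the 5 called genes became 2 with slide as a block, 3 with array position as a block, 2 with position and scan day as blocks, 3 with the compared groups alone and 1 by the methods' t-test after adjustment. At 7.4 Gy the 5 became 3 with position as a block and 0 with position and scan day. On day 7 the 0 called at 6.7 Gy became 1 with normexp, 1 with the mean of a gene's probes and 4 by the methods' t-test unadjusted, and the 0 at 7.4 Gy became 1 with normexp and 3 by that t-test. The unadjusted t-test also gave 1 in place of 0 for the doses on day 4 and for day 12 against day 7. From day 4 to day 7 the 4 called became 7 with spike-in scaling and 7 without the fold threshold. Spike-in scaling moved the median of all probes on day 4 to 0.14 and 0.19. The cause of these shifts was not tested. The other counts moved by no more than 1.5 times, and no called change turned its sign.

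Leaving out 1 array at a time gave 3 to 5 genes on day 4 at 6.7 Gy, 5 to 6 at 7.4 Gy, 0 to 1 on day 7 at either dose, 3 to 7 from day 4 to day 7 and 4 to 5 from day 4 to day 12. It gave 0 elsewhere. A group of 2 left with 1 array was assumed to vary like the others. Samples with the same replicate number did not deviate together (mean r = 0.01), and with the replicate block the day 4 counts were again 5 and 5. No value could be had with position as a block for day 7 or 12 against control or day 4, nor by the t-test for the change of the dose difference.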
